A study of Mus musculus with 28 samples.

Results

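The genotype comparison in female mice on the low-fat control diet (CTD) covered 6 livers of the 28 in the series, 3 from endothelial c-Myc knockout mice (KO 307, KO 309 and KO 317) and 3 from floxed control mice (CT 306, CT 308 and CT 318). They are the CTD columns of the deposited table of 12 animals, named here by genotype and animal number, and each was a separate C57BL/6 mouse with 1 RNA-seq library of whole liver. Both genotypes carried the floxed alleles and both received tamoxifen at 5 weeks of age to switch on Cre, then started CTD 2 weeks later and stayed on it for 5 weeks. The labels give an age of 13 weeks for all 6. The promoter that drove Cre is not given in the sources used here. The question put to the 6 livers was what loss of c-Myc in endothelial cells did to the liver transcriptome without the high-fat/cholesterol diet (HFC).

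Myc is a transcription factor that pairs with Max and binds E-boxes, short DNA motifs of which CACGTG is the preferred form. It raises genes of ribosome production, nucleotide synthesis and the cell cycle, while Mxd and Mnt proteins compete for Max and act in the other direction. Endothelial cells, mostly the fenestrated cells of the sinusoids, are a minority of the liver. They signal to hepatocytes through secreted Wnt, BMP and growth factors, and share the sinusoid with Kupffer cells, the resident macrophages. RNA of whole liver therefore reads the deleted cells directly only through genes that few other cells express, and every other cell type through its response.

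The E-box, the motif that Myc binds, was looked for in the promoters of 40 known Myc targets. These genes are not confined to endothelial cells, so whole liver does not show their level in the deleted cells alone. RefSeq promoter windows of build GRCm38.p6, from 250 bases before to 50 after the start of a gene, were searched for CACGTG, which reads the same on both strands. It was found in 7.15% of 32851 windows and for 8.09% of 27025 genes. Of the Myc targets, 32 had a window and 12 of these held the motif. The stretches of 6 of them are printed 5′ to 3′ on the strand of the gene, with the E-box in capitals. They come from Nop2 (ribosomal RNA methylation), Paics and Impdh2 (purine synthesis), Cdk4 (entry into the cell cycle), Ldha (lactate production) and Eif4e (cap binding in translation).
Nop2, chr6:125131793-125131858, plus strand: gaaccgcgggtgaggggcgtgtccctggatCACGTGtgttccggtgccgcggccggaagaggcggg
Paics, chr5:76951069-76951134, plus strand: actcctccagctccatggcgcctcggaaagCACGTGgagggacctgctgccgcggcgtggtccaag
Impdh2, chr9:108560296-108560361, plus strand: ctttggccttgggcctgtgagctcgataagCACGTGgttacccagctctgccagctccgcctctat
Cdk4, chr10:127063333-127063398, plus strand: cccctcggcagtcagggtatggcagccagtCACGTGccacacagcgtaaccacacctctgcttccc
Ldha, chr7:46845629-46845694, plus strand: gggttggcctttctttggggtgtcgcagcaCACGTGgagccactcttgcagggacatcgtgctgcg
Eif4e, chr3:138527174-138527239, plus strand: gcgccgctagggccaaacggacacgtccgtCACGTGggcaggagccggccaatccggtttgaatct
The capitals mark letters in a window and not a site shown to be bound in these livers.

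Libraries were of nearly equal depth, with 19003454 to 19195502 counts. Albumin made up 11.5 to 13.3% of the counts, and all 32 endothelial markers and all 18 hepatocyte markers present in the table passed the filter on low counts. Exocrine pancreas genes summed to 8.12 to 15.1 CPM (read counts scaled to library size) in a liver and adipocyte genes to 14.1 to 19.5 CPM, in both groups alike. The share of mitochondrially encoded counts was 13.5, 11.8 and 14.0% in CT 306, CT 308 and CT 318 against 11.5, 10.7 and 12.9% in KO 307, KO 309 and KO 317 (exact two-sided permutation p = 0.2; 3 against 3 animals cannot go below 0.1). The main axis of variation did not separate the genotypes, although a CT liver stood at one end and a KO liver at the other. The first principal component held 42.1% of the variance of 9412 genes and ran from CT 306 at -21.2 to KO 309 at 21.4, with the other 4 livers between -7.8 and 8.1. The distance between livers, as the root mean square difference of log2 CPM, averaged 0.343 within CT, 0.317 within KO and 0.329 between the genotypes.

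No gene passed the test. Of 13999 genes, edgeR's quasi-likelihood test called 0 (0% of all tested) at a Benjamini-Hochberg adjusted p under 0.05, and the smallest adjusted p was 0.999. DESeq2 called 1 gene, Fbf1, and limma-voom called 0. At an unadjusted p under 0.05 edgeR counted 446 genes (3.19%), 199 higher in KO (1.42%) and 247 lower (1.76%), where DESeq2 counted 429 and limma-voom 426. The 3 KO livers lay wholly outside the range of the 3 CT livers for 1284 genes (9.17%), 626 higher (4.47%) and 658 lower (4.7%). The same model, with the same number of animals in a group, called 307 genes (2.19%) for CT on HFC against CT on CTD. Every KO against CT difference on CTD given below therefore has, in edgeR, an adjusted p of 0.999 and is a measured value, not a change.

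The intervals show how large a difference could have been missed. The 95% confidence interval of the log2 fold change reached a median of 0.419 to either side, or 1.337-fold, and for 10782 genes (77%) it lay within a 2-fold change in either direction. That share was 6.13% among genes under 1 CPM, 61.8% from 1 to 5 CPM and 97.3% from 20 to 100 CPM. Of the 181 genes with a fitted difference above 1 on the log2 scale, 146 were under 1 CPM. For most genes of medium or high level a change of more than 2-fold in whole liver was outside the interval, while for genes at low levels little was bounded.

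**Figure D1:**
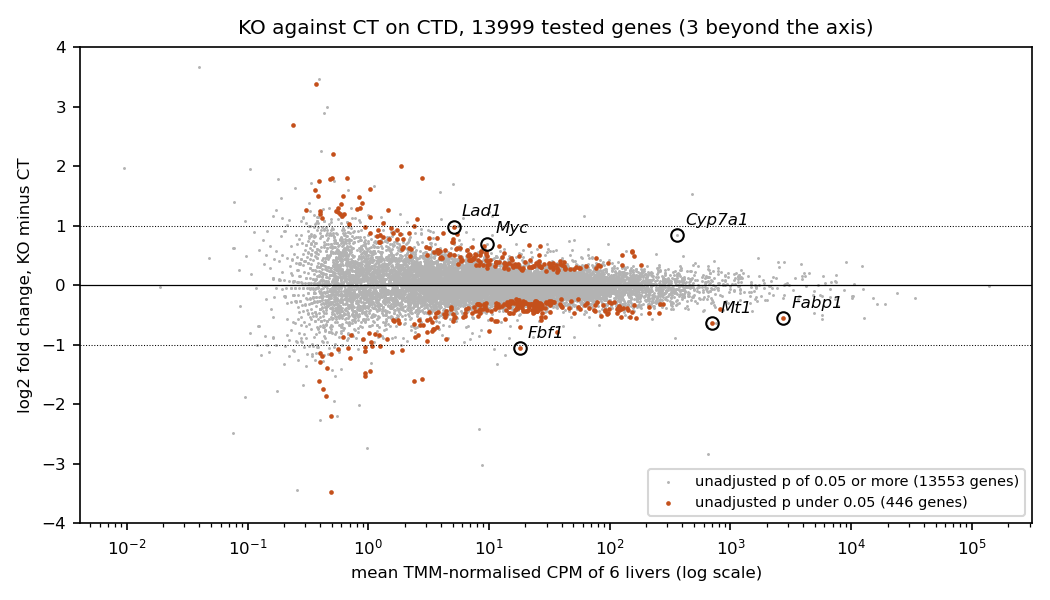
Log2 fold change of KO against CT on CTD (vertical axis) against the mean TMM-normalised CPM of the 6 livers (horizontal axis, log scale), 1 point per tested gene. The 446 genes at an unadjusted p under 0.05 are coloured and dotted lines mark a log2 value of 1 in either direction. The points past those lines lie mostly at low levels, and none of the genes passed adjustment in edgeR.

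Myc itself was not lower in KO livers. It lies on chromosome 15 from 61985391 to 61990374 (plus strand, GRCm38). Its level was 5.44, 11.98 and 4.60 CPM in CT 306, CT 308 and CT 318, and 7.26, 20.5 and 7.81 CPM in KO 307, KO 309 and KO 317. The groups overlapped, and KO 309 held the highest value. The log2 fold change was 0.69 (SE 0.56, 95% interval -0.54 to 1.93, adjusted p = 0.999, edgeR). Without KO 309 it was 0.04, and without CT 308 it was 1.24, so single livers set its size. Other liver cells also transcribe Myc, and the level in whole liver is no check of the deletion in endothelial cells. The same difference was 0.62 (SE 0.55) in the females on HFC and 0.81 (SE 0.55) in the males on CTD.

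Partners and antagonists of Myc stood at nearly equal levels. Max was at 18.6, 19.6 and 19.5 CPM in the CT livers and at 17.8, 20.2 and 19.8 CPM in the KO livers, a log2 difference of 0.00 (SE 0.13). Mxd1, which competes with Myc for Max, was at 6.25, 6.25 and 6.75 CPM in CT and 4.96, 5.50 and 5.38 CPM in KO, a log2 difference of -0.28 (SE 0.18). It was the only one of the 12 tested members of this network whose groups did not overlap (8.33%, beside 4.7% of all tested genes lower without overlap). Mycl, a paralogue of Myc, differed by 0.08 (SE 0.31) and Mnt by -0.11 (SE 0.21). The median of the 12 was -0.07, against 0.01 over all tested genes.

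**Figure D2:**
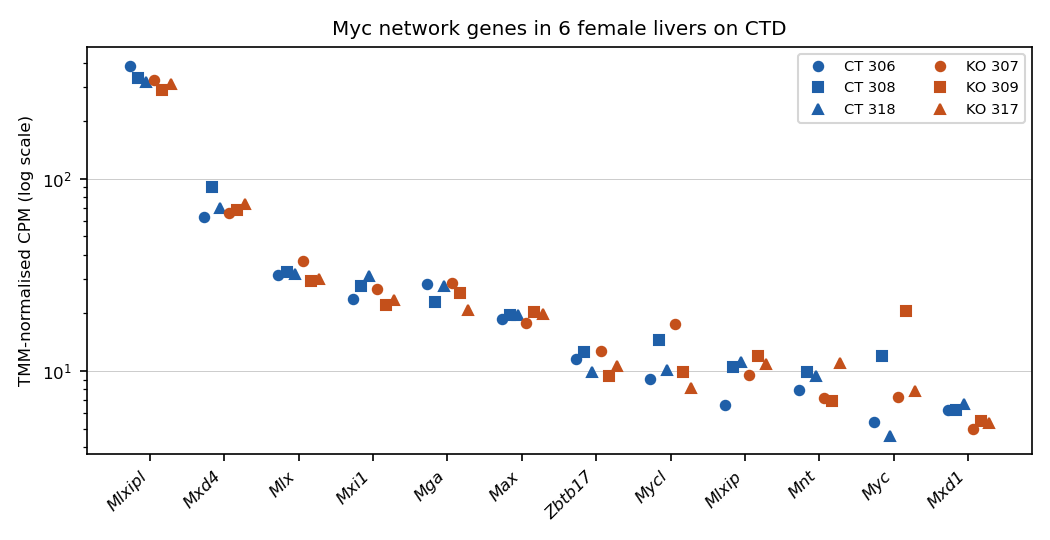
TMM-normalised CPM (vertical axis, log scale) of the 12 tested genes of the Myc, Max and antagonist network in each of the 6 livers, CT in blue and KO in orange. Myc spread from 4.60 to 20.5 CPM with KO 309 at the top, while Max stayed between 17.8 and 20.2 CPM. CPM is not corrected for length, so heights of different genes are not to be compared.

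Myc targets of ribosome production and nucleotide synthesis showed no common shift in whole liver. Whether they shifted in endothelial cells, a minority of the liver, cannot be read from these levels. All 40 were tested, 0 were called, and their median was 0.03, with 39 intervals within a 2-fold change. The 6 genes with a printed E-box differed by 0.03 (Nop2, SE 0.13), -0.06 (Paics, SE 0.20), 0.08 (Impdh2, SE 0.11), -0.27 (Cdk4, SE 0.15), -0.11 (Ldha, SE 0.14) and -0.04 (Eif4e, SE 0.11) on the log2 scale. Cdk4 was the one whose groups did not overlap, at 71.4, 60.8 and 58.2 CPM in CT and 53.9, 48.5 and 55.9 CPM in KO. Over all tested genes, the 1174 with CACGTG in a promoter window had a median of 0.006 and 2.47% at an unadjusted p under 0.05, beside 0.012 and 3.31% for the 9256 with a window but no CACGTG. Among the 40 targets 2 were higher in KO at an unadjusted p under 0.05 in edgeR, beside 1.42% of all tested genes, and 0 were lower. Without overlap 2 were higher and 2 lower, 5% each, beside 4.47% and 4.7% of all tested genes. Rrp12, which acts in ribosome export, was at 3.63, 4.4998 and 3.46 CPM in CT and 5.43, 5.27 and 6.00 CPM in KO (log2 0.53, SE 0.17). Nolc1, a nucleolar chaperone, was at 22.1, 24.5 and 20.7 CPM in CT and 32.8, 28.3 and 25.3 CPM in KO (log2 0.36, SE 0.14). Dhx37, a helicase of small-subunit assembly outside that list, was also higher, at 6.94, 8.53 and 5.50 CPM in CT and 11.5, 11.8 and 9.90 CPM in KO (log2 0.66, SE 0.16). Its log2 fold change was 0.27 in males on CTD and -0.13 in females on HFC.

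Genes of the cytosolic ribosomal proteins lay lower in KO livers as a group. All 36 had a log2 fold change below 0, from -0.47 to -0.07, with a median of -0.27. None was called, 5 were lower at an unadjusted p under 0.05 and 11 did not overlap between groups (30.6% of the list, beside 4.7% of all tested genes that lay lower without overlap). Rps24 was at 345, 239 and 313 CPM in CT 306, CT 308 and CT 318 and at 239, 189 and 219 CPM in KO 307, KO 309 and KO 317 (log2 -0.47, SE 0.19). Rpl27a was at 158, 120 and 131 CPM in CT and 108, 87.2 and 110 CPM in KO (log2 -0.42, SE 0.17). The list took 0.851, 0.786 and 0.799% of all counts in the CT livers and 0.739, 0.653 and 0.711% in the KO livers, so the groups did not overlap in its sum. The median stayed below 0 without each animal in turn, from -0.19 without KO 309 to -0.36 without KO 307. It was -0.03 in males on CTD and 0.17 in females on HFC.

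Differences between the genotypes also varied with gene length. Among 11958 genes of at least 1 CPM with a known exonic length, the median log2 fold change was -0.17 for the 73 genes under 500 bases, -0.25 for the 253 genes of 500 to under 1000 bases, -0.11 for the 1285 of 1000 to under 2000 bases and 0.06 for the 3854 of 6000 bases or more. Genes under 1000 bases that are not on the ribosomal list had a median of -0.25 as well (323 genes), and 13% of them were lower without overlap, beside 4.85% of all genes with a length. The ribosomal protein genes had a median exonic length of 2093 bases over all their transcripts. The class of 2000 to under 3000 bases, which holds that length, had a median of -0.035 over 1794 genes. In that class 5.85% were lower without overlap, beside 30.6% of the ribosomal list. CT 306 stood at 0.19 and KO 309 at -0.41 in the class of 500 to under 1000 bases relative to the CT mean, with the other 4 livers between them at -0.05 to -0.21. Across genes, the log2 fold change and the logarithm of length had Pearson's r of 0.249 and Spearman's rho of 0.268, a description over genes of the same 6 libraries. The class of 500 to under 1000 bases had a median of -0.03 in males on CTD and 0.05 in females on HFC. The part of length in the ribosomal protein difference was not tested.

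**Figure D3:**
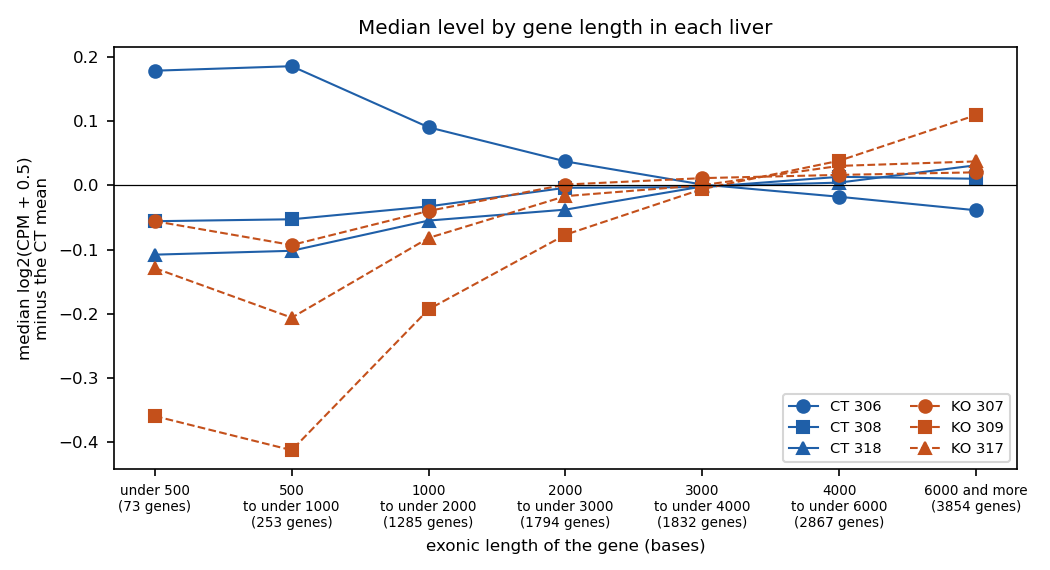
Median log2(CPM + 0.5) minus the CT mean (vertical axis) of genes grouped by exonic length in bases (horizontal axis) in each of the 6 livers, CT as solid blue and KO as dashed orange lines. For short genes CT 306 lay highest and KO 309 lowest, at 0.19 and -0.41 for 500 to under 1000 bases, and all lines met near 0 at 3000 to under 4000 bases.

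Endothelial markers did not differ between genotypes beyond the spread between animals. All 32 were tested, 0 were called and 0 reached an unadjusted p under 0.05. Their log2 fold changes ran from -0.41 to 0.47 with a median of 0.06, and 30 of the 32 intervals lay within a 2-fold change. Stab2, a scavenger receptor of sinusoidal cells, was at 39.6, 56.5 and 43.5 CPM in CT and 39.6, 51.4 and 57.9 CPM in KO (log2 0.09, SE 0.15). Kdr, the main VEGF receptor, was at 11.3, 18.8 and 18.3 CPM in CT and 13.1, 16.9 and 16.8 CPM in KO (log2 -0.05, SE 0.29). Cdh5, the cadherin of endothelial junctions, was at 6.44, 13.4 and 19.4 CPM in CT and 10.7, 23.3 and 20.2 CPM in KO (log2 0.47, SE 0.36), the highest value of the list, and is also counted among the Kupffer cell markers. In these 3 genes and in the list as a whole the livers that stood low were CT 306 and KO 307, 1 of each genotype. The list medians relative to the CT mean were -0.37 in CT 306 and -0.21 in KO 307, and between 0.13 and 0.22 in the other 4. Without CT 306 the list median was -0.16 and without KO 307 it was 0.17. Cd34, which marks vessels more than sinusoids, was the only marker whose groups did not overlap (3.12%, beside 4.7% of all tested genes lower without overlap). It was at 7.25, 7.48 and 6.98 CPM in CT and 4.49, 6.22 and 5.60 CPM in KO (log2 -0.41, SE 0.24). In whole liver, fewer cells of a type and less RNA per cell cannot be told apart.

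Signals that endothelial cells send to their neighbours were mostly measured at low levels. All 20 angiocrine genes were tested, with 0 called and a median of 0.32. Of these, 16 lay above 0, beside 52.3% of all tested genes. Without overlap 2 were higher (10%, beside 4.47% of all tested genes) and 1 was lower (5%, beside 4.7%). Wnt9b, which maintains the pericentral programme of hepatocytes together with Wnt2 and Rspo3, was at 0.188, 0.175 and 0.340 CPM in CT and 0.295, 0.4997 and 0.905 CPM in KO (log2 1.25, SE 0.55, groups overlapping). Wnt2 differed by -0.18 (SE 0.35) and Rspo3 by 0.29 (SE 0.21). Pdgfb, a growth factor for pericytes and stellate cells, was at 0.750, 1.40 and 1.13 CPM in CT and 1.48, 2.83 and 1.36 CPM in KO (log2 0.78, SE 0.35, groups overlapping). Bmp2, the endothelial signal for hepcidin, differed by -0.20 (SE 0.21). The list median was 0.13 without CT 306 and 0.42 without KO 307, and the same 20 genes had a median of -0.05 in males on CTD. Pericentral hepatocyte genes, the readout of the Wnt signal, had a median of 0.15 over 20 tested, 0 called and 2 higher without overlap (10%, beside 4.47% of all tested genes). Only KO 317 stood above every CT liver in that list, and the median was 0.03 without CT 318.

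Kupffer cell and macrophage genes split the livers within each genotype. Marco, a scavenger receptor of macrophages, was at 6.75 and 9.47 CPM in CT 306 and CT 308 and at 86.4 CPM in CT 318. In the knockouts it was at 9.56 CPM in KO 307 and at 74.8 and 86.8 CPM in KO 309 and KO 317. Timd4, a marker of long-lived Kupffer cells, followed the same animals, with 4.31, 4.38 and 21.7 CPM in CT and 4.37, 14.3 and 15.2 CPM in KO. Cd5l was at 59.5, 67.2 and 199 CPM in CT and 58.0, 141 and 187 CPM in KO. So CT 318, KO 309 and KO 317 were high and CT 306, CT 308 and KO 307 were low. The 12 Kupffer markers, Cdh5 among them, had a median log2 fold change of 0.22 with intervals that reached a median of 1.04 to either side, and 0 passed at an unadjusted p under 0.05. Without CT 318 that median was 0.89, and without KO 317 it was -0.12. Macrophage and monocyte markers behaved alike, with a median of 0.24 that was 0.82 without CT 318 and -0.06 without CT 306.

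The medians of the MHC class II list and of the T and NK cell list were highest in KO 309 and KO 317. H2-Aa, an MHC class II chain, was at 17.9, 24.7 and 27.2 CPM in CT and at 23.03, 50.02 and 39.2 CPM in KO, and Cd74, the invariant chain, at 56.1, 88.6 and 74.4 CPM in CT and at 64.9, 151 and 140 CPM in KO. The 10 class II genes had a median of 0.48, 0 called and 0 without overlap, since KO 307 lay among the controls. That median was 0.21 without KO 309 and 0.75 without KO 307. Of 20 tested T and NK cell genes, 3 were higher in KO without overlap (15%, beside 4.47% of all tested genes), namely Cd3e, Cd3d and Lck, and the median was 0.32. Cd3e, a CD3 chain of the T cell receptor complex, was at 0, 0.351 and 0.284 CPM in CT and 0.531, 0.999 and 0.736 CPM in KO (log2 1.78, SE 0.65, a fitted value that depends on the prior count because CT 306 had no read). Its log2 fold change in males on CTD was -1.70, and the female minus male difference of 3.47 had an adjusted p of 0.859 in edgeR. The T and NK median was 0.66 without CT 318 and 0.08 without KO 317, and -0.38 in males on CTD. Cx3cl1, a chemokine that recruits monocytes and lymphocytes, was at 0.375, 0.643 and 0.454 CPM in CT and 1.12, 1.94 and 0.792 CPM in KO (log2 1.38, SE 0.45, no overlap). The chemokine and cytokine list had 25 tested members, a median of 0.099 and 9 below 0. In it 2 genes were higher without overlap (8%, beside 4.47% of all tested genes) and 1 lower (4%, beside 4.7%). Cxcl1 was at 28.4, 8.88 and 19.3 CPM in CT and 7.44, 5.11 and 12.4 CPM in KO. Its log2 fold change was -1.18 (SE 0.66), with overlapping groups. Neutrophil genes had a median of -0.215 over 13 tested, 9 of them below 0.

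**Figure D4:**
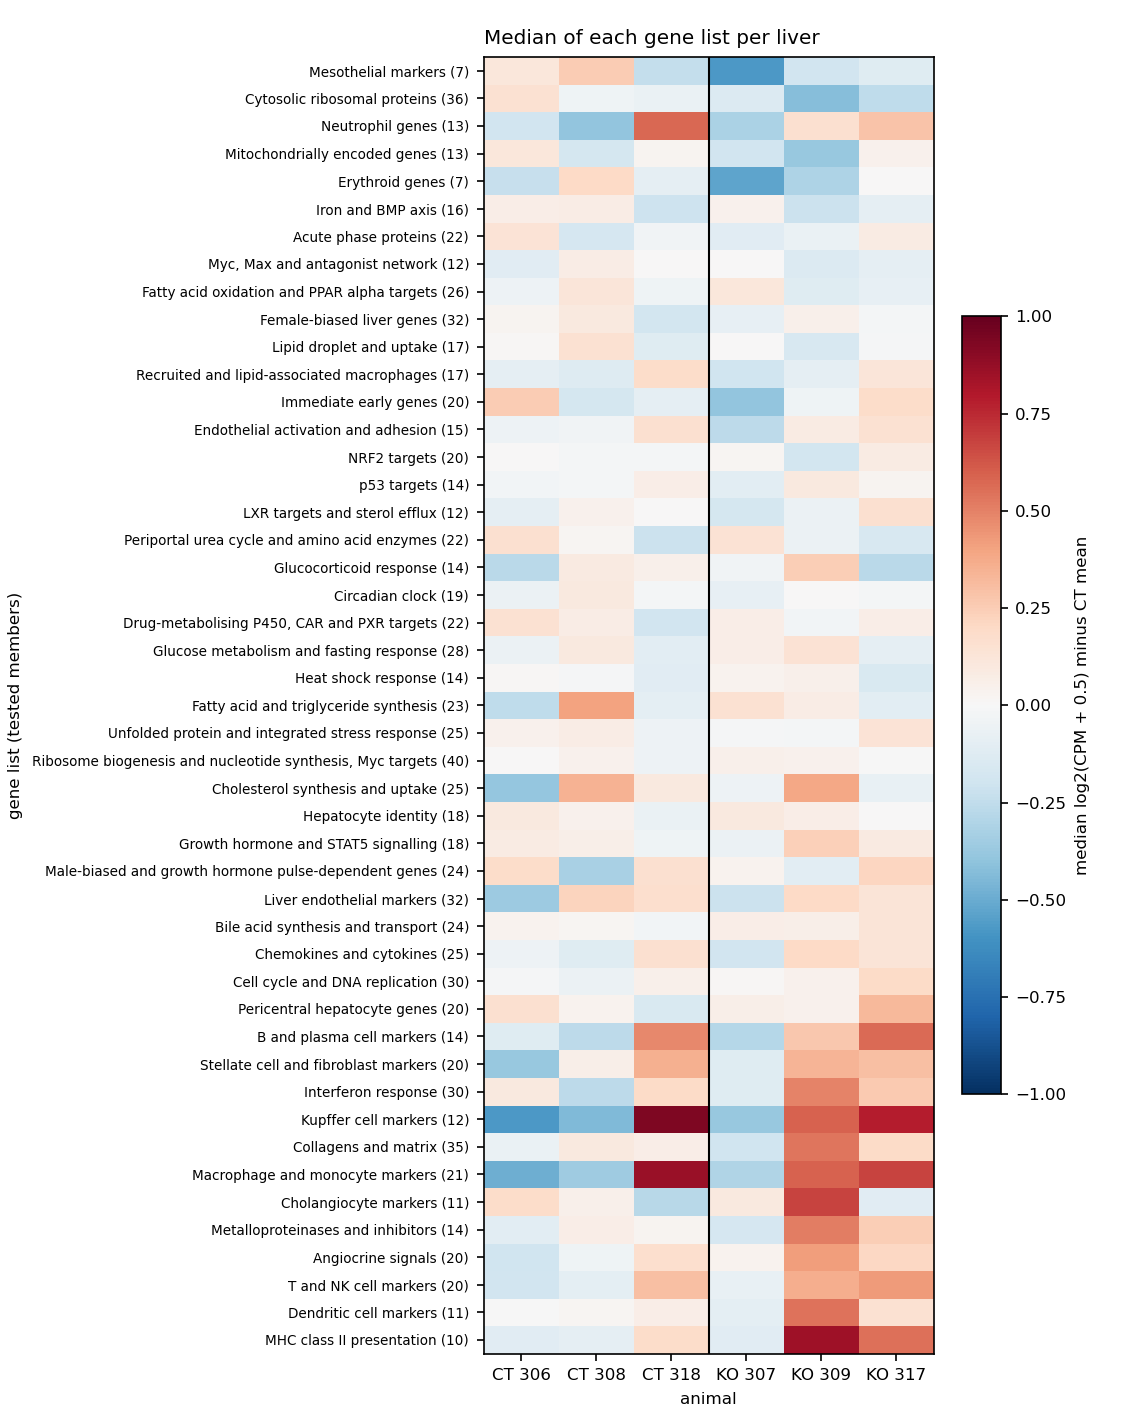
Median log2(CPM + 0.5) of each gene list minus the mean of the CT livers (colour), with the 47 lists of at least 5 tested members in rows, their number of tested members in brackets, and the 6 livers in columns, CT left and KO right of the line. Lists are sorted by their median log2 fold change. The Kupffer cell list and the macrophage and monocyte list were high in CT 318, KO 309 and KO 317, and the ribosomal protein list was lowest in KO 309.

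Cyp7a1, Cyp8b1 and Cyp27a1 were measured higher in KO livers, without a shift of the bile acid list as a whole. Cyp7a1, the rate-limiting enzyme of the classical pathway, was at 239, 264 and 272 CPM in CT and at 433, 561 and 396 CPM in KO, with every KO liver above every CT liver. The log2 fold change was 0.84 (SE 0.54, 95% interval -0.35 to 2.03), and the adjusted p was 0.999 in edgeR. It stayed between 0.68 and 0.94 over 14 alternatives of the fit. The SE and interval rest on the spread in all 12 female livers, and Cyp7a1 ran from 4.24 to 27.1 CPM in those on HFC. With only the 6 CTD libraries the adjusted p of Cyp7a1 was 0.748 in edgeR. Cyp8b1, which directs synthesis to cholic acid, was at 116, 153 and 97.3 CPM in CT and 201, 196 and 149 CPM in KO (log2 0.58, SE 0.23, groups overlapping). Cyp27a1, of the alternative pathway, was at 336, 348 and 320 CPM in CT and 366, 377 and 403 CPM in KO (log2 0.19, SE 0.17). Abcb11, the canalicular bile salt pump, differed by 0.02 (SE 0.17). The 24 tested genes of the pathway had 0 called, 2 higher without overlap (8.33%, beside 4.47% of all tested genes), 7 below 0 and a median of 0.06. In females on HFC the difference in Cyp7a1 was -0.40 and in males on CTD -0.36, and neither the diet interaction nor the female minus male difference passed (adjusted p 0.992 and 0.863, edgeR).

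List medians of lipid and sugar metabolism stood near 0, though single members did not. The list medians were 0.03 for 25 cholesterol genes, 0.02 for 23 genes of fatty acid synthesis, -0.04 for 26 genes of fatty acid oxidation and 0.01 for 28 genes of glucose metabolism, with 0 called in each. The 17 tested genes of lipid droplets and uptake had a median of -0.04 and 0 called. Of these 17, 3 were lower without overlap (17.6%, beside 4.7% of all tested genes). Scd1, the desaturase of newly made fatty acids, ranged from 4974 to 13608 CPM within CT alone and differed by -0.24 (SE 0.38). Fabp1, the fatty acid carrier of hepatocytes, was at 3272, 2900.5 and 3598 CPM in CT and at 2901, 1626 and 2144 CPM in KO (log2 -0.55, SE 0.22), with KO 307 level with CT 308. Fabp1 has an exonic length of 553 bases, in the class of 500 to under 1000 whose median was -0.25. Ppp1r3b, which targets a phosphatase to glycogen, was at 97.7, 161 and 113 CPM in CT and 212, 200 and 137 CPM in KO (log2 0.56, SE 0.23, groups overlapping). Gys2 was at 306, 302 and 303 CPM in CT and 226, 230 and 248 CPM in KO (log2 -0.37, SE 0.21). It was the 1 gene of the glucose list lower without overlap (3.57%, beside 4.7% of all tested genes).

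The metallothioneins were measured lower in KO livers on both diets. Mt1, a binder of zinc and copper ions that responds to metals and glucocorticoids, was at 1006, 698 and 854 CPM in CT and at 516, 552 and 579 CPM in KO on CTD (log2 -0.64, SE 0.28). Mt2 was at 503, 334 and 519 CPM in CT and at 213, 227 and 295 CPM in KO (log2 -0.88, SE 0.50). Neither gene overlapped between the genotypes on CTD. Mt2 and Mt1 have exonic lengths of 588 and 1246 bases, in length classes whose medians on CTD were -0.25 and -0.11. The part of length in these differences was not tested. In the females on HFC, other animals, Mt1 was at 367, 755 and 356 CPM in CT and at 314, 184 and 258 CPM in KO (log2 -0.96, adjusted p = 1, edgeR). Mt2 on HFC was at 184, 555 and 124 CPM in CT and at 174, 75.9 and 138 CPM in KO (log2 -1.15). Its groups overlapped there, and CT 510 held the highest value. In males on CTD Mt1 differed by -0.80 with a wide SE of 0.92, since single males ranged from 13.8 to 340 CPM. Mt1 and Mt2 were the 2 of 14 tested glucocorticoid-responsive genes lower without overlap (14.3%, beside 4.7% of all tested genes). In that list 0 were higher without overlap, and the median was 0.00.

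The matrix, metalloproteinase and bile duct medians were each lowest when KO 309 was left out. The bile duct median changed sign there, while the matrix, metalloproteinase and mesothelial medians kept their sign without each animal in turn. The metalloproteinase and inhibitor median of 0.30 was 0.13 without KO 309 and 0.44 without KO 307. The 35 collagen and matrix genes had a median of 0.22 and 0 called, with 0.03 without KO 309 and 0.41 without KO 307. Col3a1, a fibrillar collagen, was at 34.5, 25.5 and 27.9 CPM in CT and 21.1, 53.5 and 35.3 CPM in KO. Mmp14, a membrane-bound collagenase, was at 25.6, 30.4 and 27.1 CPM in CT and 32.4, 39.1 and 34.6 CPM in KO (log2 0.35, SE 0.13), and Mmp19 at 49.7, 46.7 and 41.5 CPM in CT and 55.0, 55.5 and 56.9 CPM in KO (log2 0.28, SE 0.13). These 2 were the genes of the metalloproteinase and inhibitor list higher without overlap, of 14 tested (14.3%, beside 4.47% of all tested genes). Timp1, a metalloproteinase inhibitor, was lower without overlap (7.14%, beside 4.7%), at 2.001, 0.993 and 1.42 CPM in CT and 0.472, 0.944 and 0.849 CPM in KO (log2 -0.95, SE 0.59). The median of the 11 tested bile duct markers was highest in KO 309, but its members did not move together and 4 lay below 0. Epcam was at 2.38, 2.05 and 1.53 CPM in CT and 2.13, 4.61 and 1.64 CPM in KO, whereas Krt23 was lowest in KO 309, at 19.4, 18.2 and 6.70 CPM in CT and 9.80, 4.72 and 6.62 CPM in KO (log2 -1.07, SE 0.50). The list median of 0.27 was -0.06 without KO 309. All 7 mesothelial markers lay below 0 with a median of -0.30, and Upk1b, a urothelial and mesothelial surface protein, was at 6.31, 6.08 and 4.71 CPM in CT and 2.48, 2.61 and 4.02 CPM in KO (log2 -0.91, SE 0.40). In males on CTD the mesothelial median was 0.64.

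Fbf1 had the smallest p of all genes. It encodes a protein of the transition fibres at the base of cilia and lies on chromosome 11 from 116142285 to 116168166 (minus strand, GRCm38). Its level was 25.7, 27.8 and 19.1 CPM in CT 306, CT 308 and CT 318 and 11.99, 12.3 and 10.6 CPM in KO 307, KO 309 and KO 317. The ratio of KO to CT was 0.480 (95% interval 0.354 to 0.652), a log2 fold change of -1.06 (SE 0.20, unadjusted p = 0.000174 and adjusted p = 0.999 in edgeR). DESeq2 gave an adjusted p of 0.0436, and over 14 alternatives the log2 value stayed between -1.20 and -0.93. In the females on HFC it was at 15.6, 10.6 and 11.5 CPM in CT and 11.96, 9.11 and 15.2 CPM in KO, so the 3 CT livers on CTD stood above the other 9 females. The log2 fold change there was -0.06, and in males on CTD it was 0.12. Neither the diet interaction (log2 0.9998, SE 0.29, adjusted p = 0.992) nor the female minus male difference (-1.20, SE 0.41, adjusted p = 0.859) passed in edgeR.

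The other large differences among well-measured genes came from several functions. Requiring at least 5 CPM in a group, no overlap and an unadjusted p under 0.05 left 228 genes (1.63%), 83 higher and 145 lower in KO. The most positive were Lad1, a basement membrane anchor (log2 0.98, SE 0.38), Cd24a, a surface glycoprotein of progenitor and biliary cells (0.86, SE 0.37), Unc5b, a netrin receptor of endothelial cells (0.73, SE 0.32), and Snai2, a repressor of epithelial genes (0.72, SE 0.22). Cd24a was at 2.94, 4.56 and 3.97 CPM in CT and 4.66, 11.6 and 4.58 CPM in KO, so its size came from KO 309, whereas Snai2 was at 4.001, 3.92 and 3.23 CPM in CT and 6.91, 5.94 and 5.49 CPM in KO. Hist1h1c, a linker histone, was at 20.3, 21.1 and 20.5 CPM in CT and 42.98, 24.2 and 30.8 CPM in KO (log2 0.66, SE 0.17). Hipk2 (0.66), Ajuba (0.63), Cxx1b (0.63), Mgat5 (0.59), Unc13b (0.59) and Tlr12 (0.56) followed. After Fbf1 and Upk1b, the most negative was Serpina7, the thyroxine-binding globulin, at 53.01, 31.3 and 55.2 CPM in CT and 26.0, 28.8 and 26.2 CPM in KO (log2 -0.78, SE 0.29). Lyrm4, a subunit of iron-sulphur cluster assembly, was at 19.3, 12.8 and 16.9 CPM in CT and 11.6, 8.94 and 12.4 CPM in KO (log2 -0.57, SE 0.17). Cox16, an assembly factor of cytochrome oxidase, was at 35.9, 29.2 and 29.8 CPM in CT and 23.8, 17.8 and 23.9 CPM in KO (log2 -0.54, SE 0.17). Hypk (-0.61), Crip1 (-0.60), Gm9803 (-0.60), Vmn1r-ps128 (-0.58), Ccbl2 (-0.55) and Cep70 (-0.55) completed the 12 together with Mt1, described above. Gm9803 and Vmn1r-ps128 are predicted or pseudogene loci whose reads may belong to related sequences.

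**Figure D5:**
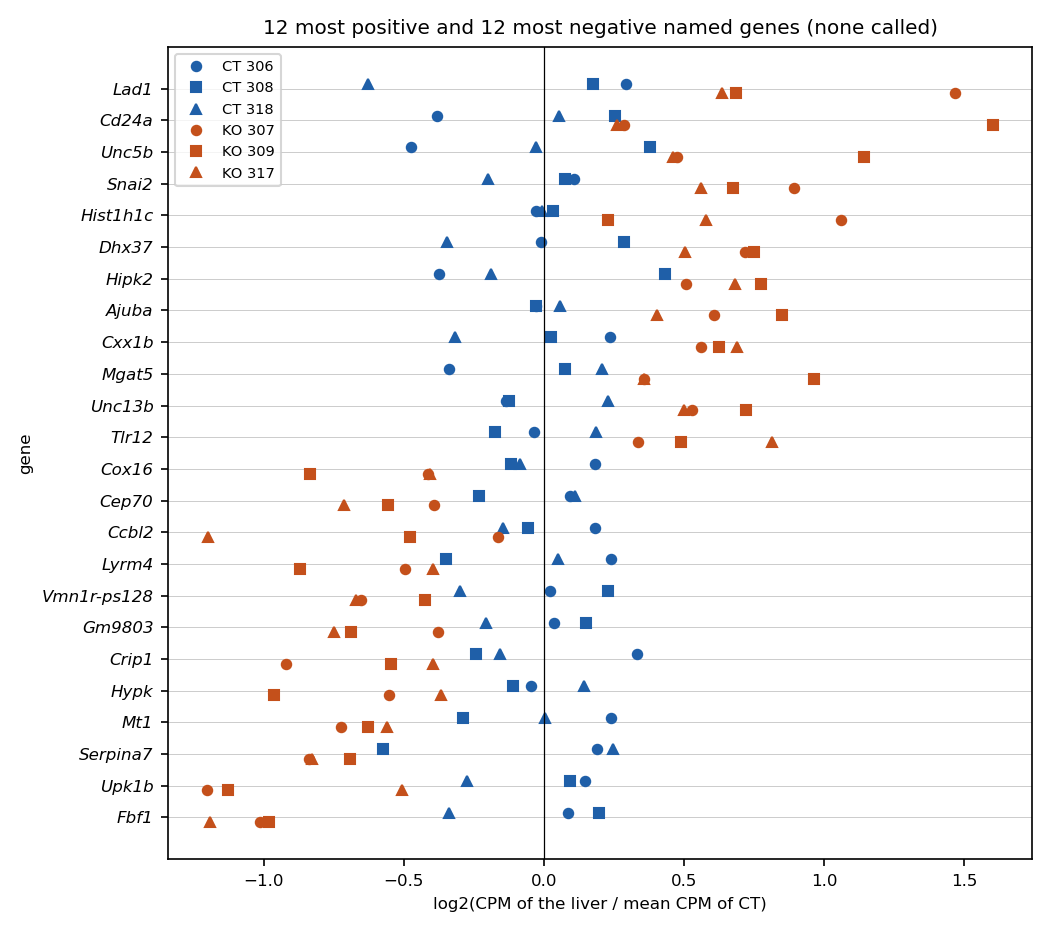
Level of each liver relative to the CT mean (horizontal axis, log2 of the CPM ratio) for the 12 most positive and 12 most negative named genes (vertical axis), CT in blue and KO in orange. The genes were selected for groups that do not overlap, so the separation is by choice, and KO 309 or KO 307 set the size for Cd24a, Unc5b, Mgat5, Lad1 and Hist1h1c. None was called by edgeR.

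Most of these 228 genes kept their sign in males on CTD, and most did not keep it in females on HFC. In males on CTD 131 of the 228 had the sign they had in females (57.5%, beside 47.6% of all 13738 genes tested in both), and 6 of them also reached an unadjusted p under 0.05 there. In females on HFC 57 of 228 had the same sign (25%, beside 44.6% of all 13999), and 1 of them reached an unadjusted p under 0.05, where KO against CT on HFC had 0 called genes (0%) and 311 (2.22%) at that p. Tested directly, the KO effect on HFC minus that on CTD called 0 genes (0%; 546, or 3.9%, at an unadjusted p under 0.05). The KO effect on CTD in females minus that in males called 0 of 14685 (0%; 813, or 5.54%, at an unadjusted p under 0.05). Males on CTD, 4 against 4 animals, gave 0 called genes in edgeR as well (0%; 949 of 14078, or 6.74%, at an unadjusted p under 0.05) and 11 in DESeq2.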

How the data were processed

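Whole-liver RNA of 28 mice was sequenced, 12 females and 16 males in separate tables. The authors deposited whole-number read counts per gene and CPM values, and the deposited CPM equal the count over the library total (largest difference 4.44e-05). The submitters' processing notes name FastQC, edgeR and GRCm38 (mm10). How reads were aligned and counted, and whether by strand, is not given in the sources used here, so near-identical or overlapping genes are uncertain.

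Libraries were scaled by TMM, and 13999 of 32544 genes were kept by filterByExpr. CPM printed here are TMM-normalised. All 12 female libraries were fitted with 1 mean per group in edgeR 4.0.16 (R 4.3.3, limma 3.58.1, robust quasi-likelihood), since 3 against 3 animals give little information on spread; the biological coefficient of variation was 0.199. The contrast was KO minus CT on CTD, adjusted by Benjamini-Hochberg over all genes. Standard errors are the log2 fold change over the square root of F, an approximation. DESeq2 1.42.0, limma-voom, other scalings and filters, and leaving out each animal were alternatives. Males were fitted apart (14078 genes), and a joint fit gave the sex difference (14685 genes). The fitting steps were first run on simulated counts with known differences.

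Genes were named by rule: Myc, then called genes (none), then the 12 largest differences each way at unadjusted p under 0.05 with at least 5 CPM and no overlap, then the 2 smallest p of each list; endothelial and network members and the E-box genes are given besides. Any other gene was chosen after its values were seen. The members and the 49 lists (993 entries, 7 of them absent from the tables) were chosen with earlier results of these data known, and lists are described, not tested. No list holds a called gene, 27 medians lie from -0.1 to 0.1, 14 above and 8 below. Coordinates and exonic lengths come from GENCODE M21, which holds 96.4% of the symbols. Promoter entries matched 74.5% of tested genes.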

Additional observations from a re-analysis of the deposited data

How the results depend on the processing

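No paired analysis was possible because every label carries its own animal number and the genotypes share none. For KO against CT on CTD in females, edgeR called 0 genes under each scaling, filter and dispersion setting, with only the 6 CTD libraries (smallest adjusted p 0.0855) and without each animal in turn (0 to 0), and limma-voom and limma-trend called 0. DESeq2 called 1, Fbf1. The number at an unadjusted p under 0.05 moved from 446 to 159 without KO 309 and 208 without CT 306, and to 788 without KO 307 and 699 without CT 308. For the diet interaction the leave-one-out range was 0 to 1 (Lrrc3, without KO 413 on HFC, adjusted p 0.0451, edgeR), and for males on CTD DESeq2 called 11. For the female minus male difference every alternative called 0. Of 49 list medians, 15 kept their sign without each animal in turn and 34 did not. Named genes changed sign in 7 cases, all far from significance. Cela2a was -0.024 with limma-voom, -0.13 without CT 306, -0.24 without KO 307 and -0.021 without KO 309 (range without each animal -0.24 to 0.37). Cela1 was -0.14 without CT 308 and -0.053 without KO 317 (range -0.14 to 0.25), and Cidec -0.024 without KO 307 (range -0.024 to 0.67). The cause was not tested. Depth limits genes under 1 CPM, where intervals reached a median of 1.147 to either side on the log2 scale.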

Other observations

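Gm7336, a predicted pseudogene locus chosen after its values were seen, had 24, 26 and 48 counts in CT 306, CT 308 and CT 318 and 0 in each KO liver on CTD. Against the limit of 3 counts over the group that a count of 0 allows, the 98 pooled counts in CT are at least 32.7-fold higher. That bound covers counting only and leaves out the variation between animals. Among the other 22 animals Gm7336 ranged from 0 to 93 counts, with zeros and positive counts in both genotypes.

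Some secreted hepatocyte proteins varied widely between livers of one genotype. Serpina1e, one of several near-identical alpha-1-antitrypsin genes, was at 265, 111 and 366 CPM in CT and at 302, 1121 and 722 CPM in KO (log2 1.53, SE 0.69, adjusted p = 0.999, edgeR), with overlapping groups. Hamp, the iron hormone hepcidin, was at 2851, 974 and 973 CPM in CT and at 2073, 861 and 984 CPM in KO. It was highest in CT 306 and KO 307, which also held the lowest endothelial list medians.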
